A study of Mus musculus with 4 samples.

Results

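Nucleotide sugars are the activated donors from which all sugar chains of the cell are built. The genes described here make them, carry them into the endoplasmic reticulum and Golgi, or do the same for the activated sulfate donor PAPS. The list held 38 genes chosen by function, and 33 of them had a probe set whose RefSeq accession matched their symbol, out of 909 named genes and 1246 probe sets on the array. Where a gene had several probe sets, that of highest mean over the 4 arrays was used, and all 33 were tested, with no filter on low values. For Hk2, Galm, Fcsk, Slc35b2 and Slc26a2 no probe set was matched, and they were not analysed here.

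The arrays measured RNA of cultured vascular smooth muscle cells of wild-type mice, all kept in osteogenic medium, which drives such cells towards a bone-like state. The treated cells also received 0.4 mM streptozotocin (STZ), a nitrosourea joined to glucosamine and best known for destroying insulin-producing cells, and the control cells did not. Each group held 2 arrays, 1 of a cell sample named WTA (replicate 2) and 1 of a cell sample named WT2 (replicate 1), referred to as cultures. Whether WTA and WT2 were separate animals is not in the labels, and p-values for treatment therefore reflect the spread of these samples alone, which may be technical. The study's design text asks how genes of glycan metabolism respond to streptozotocin while the cells calcify.

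Most monosaccharides are linked to UDP, GDP or CMP in the cytosol, and the products cross the Golgi or endoplasmic reticulum membrane through transporters of the Slc35 family, which typically exchange them for a nucleoside monophosphate. In the artery wall, smooth muscle cells spend these donors on proteoglycans, hyaluronan and glycoproteins, and sulfation of the proteoglycan chains needs PAPS as well.

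Values are log2 intensities per probe set after RMA, a method that makes the arrays' distributions alike, and the array medians lay between 5.83 and 5.87. With 2 arrays per group, precision is limited by their number. A probe set's level also depends on its probes, so levels were compared between arrays and not between genes. Of the 33 genes, 5 had a mean below the median of all probe sets (5.86), where background makes up more of the signal and differences are compressed: Galk2, Galt, Slc35a3, Slc35d1 and Slc35d3. The cell identity could be checked only in part. Of 7 smooth muscle markers Pdgfrb alone had a matched probe set, at 9.38 to 9.68, and of 7 bone cell markers 0 had one. The fibroblast markers Pdgfra, Dcn and Lum stood at 9.19 to 12.73. Of 8 macrophage and leukocyte markers 4 were measured, with Adgre1, Mrc1 and Clec4d at 2.79 to 4.09 and Csf1r at 7.40 to 7.92.

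**Figure D1:**
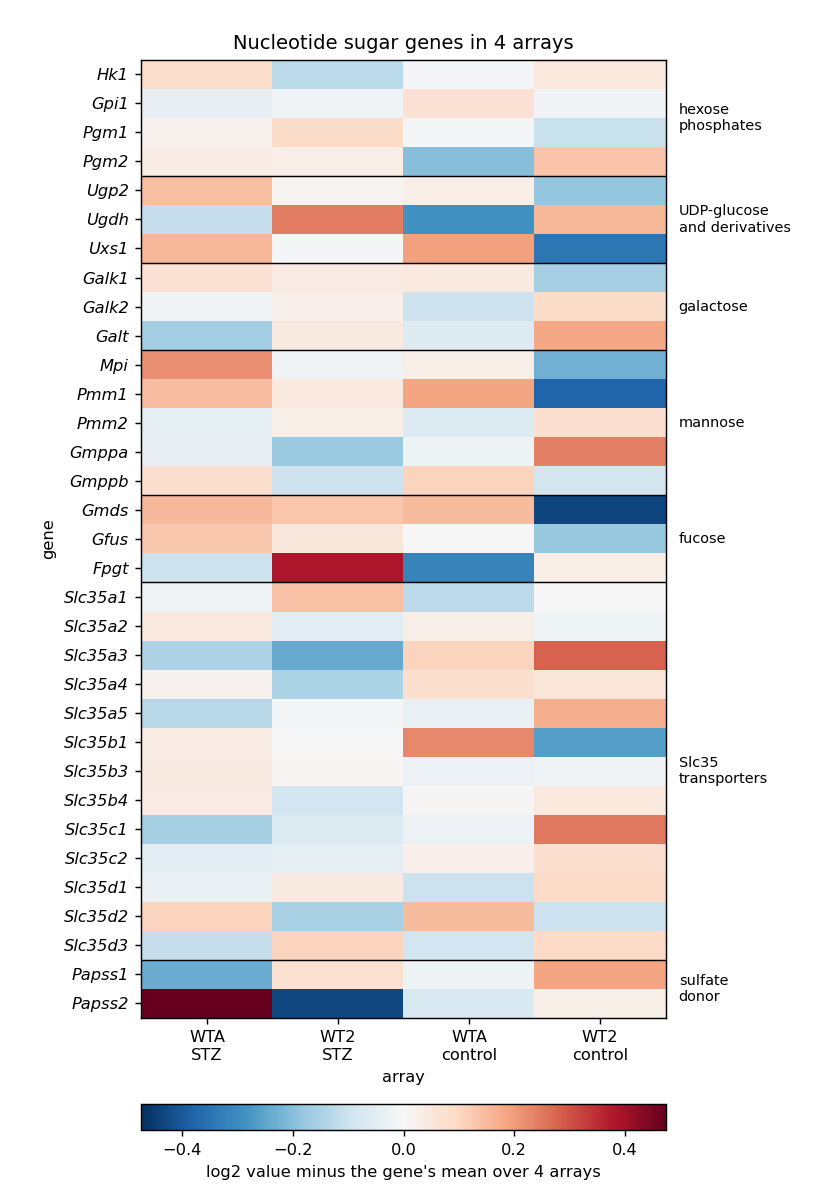
Each row is 1 of the 33 genes, grouped by role, and each column 1 array; the colour gives the log2 value minus that gene's mean over the 4 arrays. The strongest colours are those of Papss2 with streptozotocin, high in WTA and low in WT2, of Fpgt, high with streptozotocin in WT2, and of Gmds, Pmm1 and Uxs1, low in the control array of WT2.

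The first comparison set streptozotocin against control. The differences of the nucleotide sugar genes ran from -0.38 at Slc35a3 to 0.28 at Gmds, with 17 above 0 and 16 below. The median was 0.01, against -0.01 over all probe sets. Without regard to sign, the median difference was 0.11, against 0.08 over all probe sets. By limma, 0 of the 33 genes passed an adjusted p of 0.05, where 0% of all probe sets did. At an unadjusted p under 0.05 there was 1 of 33 genes, Slc35a3, or 3.03%, against a background of 2.01%. The fit's 95% interval of the difference, which is not adjusted for the number of genes, lay within a 2-fold change for 32 of 33 genes, a share of 97.0% against 86.1% of all probe sets. It lay within a 1.5-fold change for 21 genes (63.6%, against 67.6%). For the other 12 genes the interval reaches past 1.5-fold, so this fit does not exclude a change of that size. It had no culture term, so differences between WTA and WT2 can widen its intervals. With the culture taken out of the error, the SE was 0.096 instead of 0.224 at Ugdh, but 0.138 instead of 0.135 at Gmppa. The counts of intervals hold for the fit without that term alone. In the fit with it, Slc35a3 was again the 1 gene of 33 at an unadjusted p under 0.05. Over all probe sets there were 80 of 1246.

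Within each culture, with 1 array per group and no test, 0 of the 33 genes reached a 1.5-fold difference. In WTA the differences ran from -0.25 to 0.55 and in WT2 from -0.52 to 0.57. Without regard to sign, their median was 0.08 in WTA, against 0.10 over all probe sets, and 0.18 in WT2, against 0.13. The background for a 1.5-fold difference in either direction was 2.33% of all probe sets in WTA and 7.3% in WT2. Lower values with streptozotocin in both cultures were seen for 11 genes (33.3%, background 28.5%) and higher values in both for 10 (30.3%, background 22.6%). Both treated arrays lay below both control arrays for 6 genes (18.2%, background 13.8%) and above both for 3 (9.09%, background 10.8%). These shares lie near those of all probe sets.

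**Figure D2:**
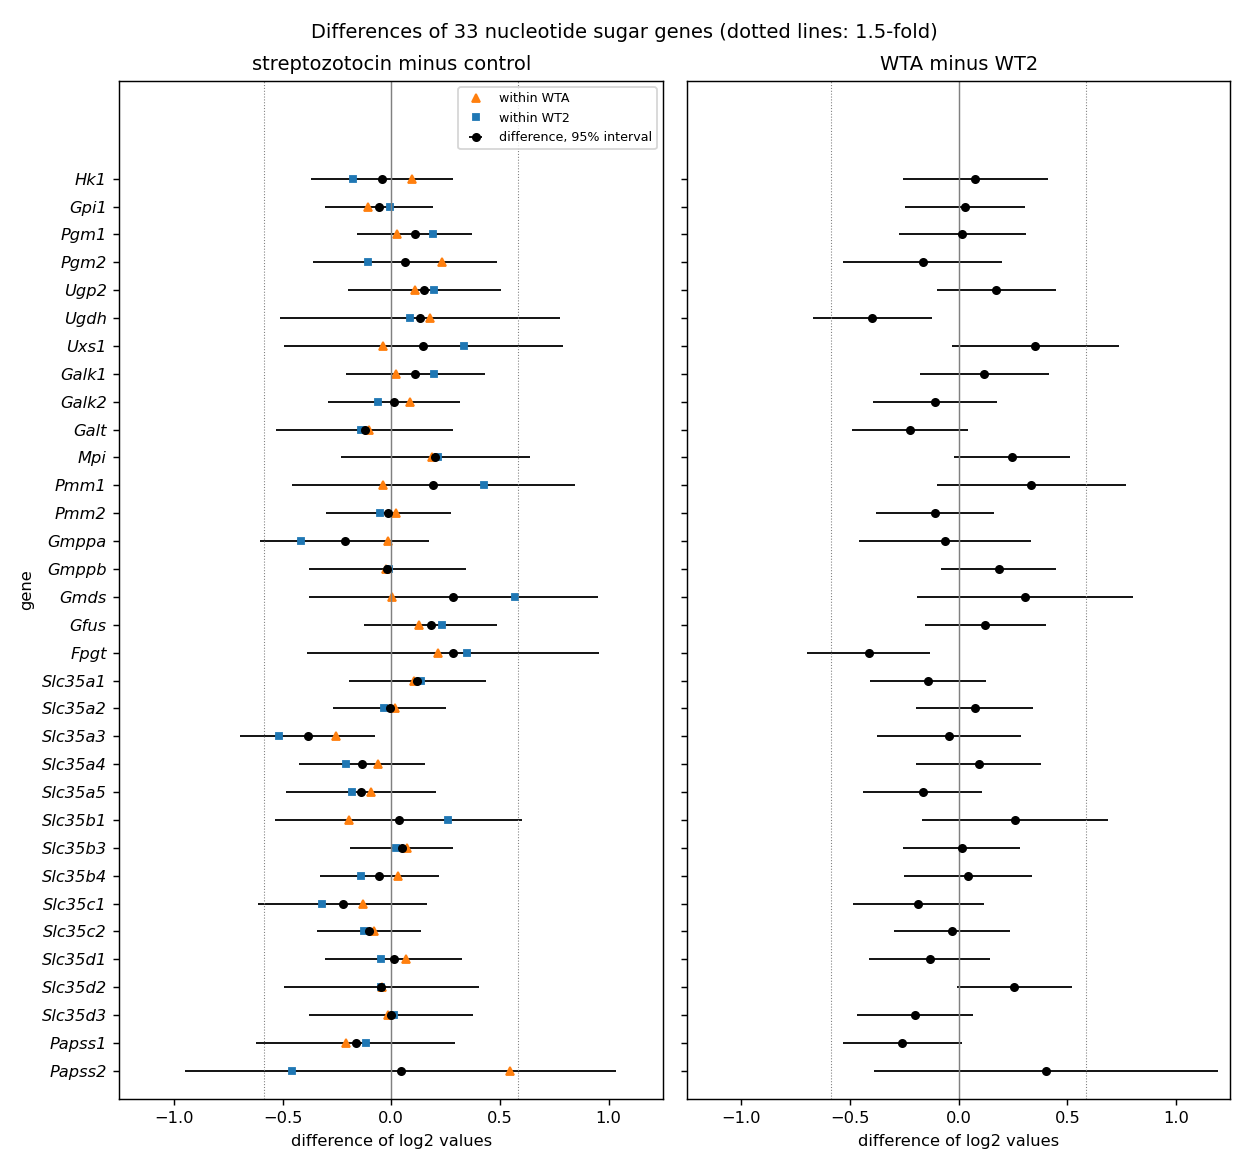
Left, the streptozotocin minus control difference of each gene on the log2 scale with its 95% interval (bars), and the differences within WTA (triangles) and WT2 (squares); right, the WTA minus WT2 difference with its 95% interval. Dotted lines mark 1.5-fold. All intervals but 1 on the left, that of Slc35a3, cross 0, and all but those of Fpgt and Ugdh on the right.

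Slc35a3, the Golgi transporter of UDP-GlcNAc, the donor for N-glycan branches and heparan sulfate, had the largest difference among these genes. It had log2 values of 5.19 in WTA and 5.10 in WT2 with streptozotocin, against 5.44 in WTA and 5.62 in WT2 in control cells. Both treated arrays lay below both control arrays. The difference was -0.38 (SE 0.11, 95% interval -0.70 to -0.07, limma unadjusted p = 0.0273 and adjusted p = 1), with -0.25 in WTA and -0.52 in WT2. It did not pass the test, and the probe set is a dim one whose identifier carries an s, a mark used for probes that may match several transcripts. The probe sets of Uxs1, Papss2 and Gpi1 carry this mark too. Without the control array of WT2, the Slc35a3 difference was -0.30. Here and below, a streptozotocin difference with 1 array left out comes from a fit without a culture term. It sets the lone array of a group against the mean of the other group, so a difference between WTA and WT2 enters it.

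Slc35c1, which carries GDP-fucose into the Golgi, had log2 values of 7.88 in WTA and 7.97 in WT2 with streptozotocin, against 8.01 in WTA and 8.29 in WT2 in control cells. Again both treated arrays were below both control arrays, and the highest value was that of the WT2 control. The difference was -0.22 (SE 0.13, limma adjusted p = 1), and -0.08 without the control array of WT2. Its relative Slc35c2, a Golgi protein tied to the fucosylation of Notch, differed by -0.10, with -0.08 in WTA and -0.13 in WT2.

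Of the 13 Slc35 genes measured, 9 had a difference below 0 and 4 above, with a median of -0.05 and 0 past the test. Over all 1246 probe sets, 660 differences were below 0 and 586 above. In 6 of the 13 the value was lower with streptozotocin in both cultures, against 28.5% of all probe sets. These were Slc35a3, Slc35c1, Slc35c2, Slc35a4, Slc35a5 and Slc35d2. Slc35a4 differed by -0.14 and Slc35a5 by -0.14. Slc35d2, a transporter that accepts UDP-GlcNAc, differed by -0.05. In 2 of the 13, Slc35a1 and Slc35b3, the value was higher in both, against 22.6% of all probe sets. Slc35a1, the CMP-sialic acid transporter, differed by 0.12, with 0.11 in WTA and 0.13 in WT2. Slc35b3, which carries PAPS, differed by 0.05.

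The other 5 transporters went opposite ways in the cultures. Slc35b1, which exchanges ATP and ADP across the endoplasmic reticulum membrane, differed by -0.19 in WTA and 0.26 in WT2. Slc35a2, the UDP-galactose transporter, varied little, with 9.40 in WTA and 9.30 in WT2 with streptozotocin, against 9.38 in WTA and 9.33 in WT2 in control cells. Its second probe set, built on another transcript, had 8.01 and 7.74 in those treated arrays, against 8.01 and 7.95 in the controls. Slc35b4, which accepts UDP-xylose and UDP-GlcNAc, differed by -0.05. Slc35d1, the endoplasmic reticulum transporter of UDP-glucuronate and UDP-GalNAc, differed by 0.01, and Slc35d3 by -0.00 at a level near the low end of the array.

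The stretches of 250 bases before the transcription start are given for Slc35a3, Slc35c1 and Gmppa, the 3 genes among the 5 largest differences whose treated arrays both lay below both control arrays. They come from RefSeq on build GRCm38.p6, read 5′ to 3′ on the strand of the gene, and the capitals mark a CCAAT box in reverse. Slc35a3 lies on the minus strand (chr3:116712281-116712530), Slc35c1 on the minus strand (chr2:92460519-92460768, the first of 2 listed starts) and Gmppa on the plus strand (chr1:75435686-75435935). For Slc35a3 and Gmppa the RefSeq gene extends further upstream than the listed start, so other transcripts may begin earlier.
Slc35a3: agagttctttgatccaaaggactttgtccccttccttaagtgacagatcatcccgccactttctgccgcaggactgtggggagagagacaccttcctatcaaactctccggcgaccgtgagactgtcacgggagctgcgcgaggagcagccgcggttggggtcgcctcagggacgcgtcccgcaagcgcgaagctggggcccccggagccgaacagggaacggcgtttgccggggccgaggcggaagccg
Slc35c1: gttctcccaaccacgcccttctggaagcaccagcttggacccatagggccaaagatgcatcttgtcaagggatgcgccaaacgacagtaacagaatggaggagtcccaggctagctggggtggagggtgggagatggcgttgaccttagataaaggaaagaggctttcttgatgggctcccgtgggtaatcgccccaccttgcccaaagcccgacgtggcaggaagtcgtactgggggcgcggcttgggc
Gmppa: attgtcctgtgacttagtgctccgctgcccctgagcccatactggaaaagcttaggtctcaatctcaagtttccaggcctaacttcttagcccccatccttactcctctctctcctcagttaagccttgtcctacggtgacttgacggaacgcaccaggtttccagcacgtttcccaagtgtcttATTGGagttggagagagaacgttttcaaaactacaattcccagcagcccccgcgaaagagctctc

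The Slc35a3 window is GC-rich, with 64.0% G and C and 24 CG pairs, against 58.8% and 11 for Slc35c1 and 50.8% and 8 for Gmppa. The median over 17492 protein-coding genes was 55.2% and 10. Both strands were searched by exact letters for the GC box GGGCGG, the CCAAT box, the TATA box TATAAA and the E box CACGTG. The windows of Slc35a3 and Slc35c1 held none of these letters and that of Gmppa held 1 CCAAT. With 1 window per gene, 28 of the 33 genes were matched, and GGGCGG was in 19 of the 28 (67.9%, against 42.7% of protein-coding genes). CCAAT was in 9 (32.1%, against 36.3%), TATAAA in 3 (10.7%, against 12.4%) and CACGTG in 3 (10.7%, against 6.64%). A match of letters is a description of the window and not of binding.

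GDP-mannose and GDP-fucose share a route. Mpi turns fructose-6-phosphate into mannose-6-phosphate, Pmm1 and Pmm2 move the phosphate, and Gmppb makes GDP-mannose, with Gmppa as its regulatory partner. Gmds and Gfus convert GDP-mannose into GDP-fucose, and Fpgt makes GDP-fucose from salvaged fucose. The 3 fucose genes were each higher with streptozotocin in both cultures, as were 22.6% of all probe sets, Gmds in WTA by less than 0.01. Their median difference was 0.28, and 0 of them passed the test.

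Gmds had log2 values of 9.36 in WTA and 9.34 in WT2 with streptozotocin, against 9.36 in WTA and 8.77 in WT2 in control cells. Only the control array of WT2 stood low. The difference was 0.28 (SE 0.23, 95% interval -0.38 to 0.95, limma adjusted p = 1), made up of 0.00 in WTA and 0.57 in WT2, and without that array it was -0.00921.

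Fpgt had log2 values of 8.22 in WTA and 8.71 in WT2 with streptozotocin, against 8.01 in WTA and 8.36 in WT2 in control cells. The groups overlapped because WT2 was the higher culture in both. The difference was 0.28 (SE 0.23, limma adjusted p = 1), with 0.21 in WTA and 0.35 in WT2. It was 0.04 without the streptozotocin array of WT2 and 0.11 without the control array of WTA. Both of these values also hold the difference between WTA and WT2. In the fit with a replicate block, which takes the culture out of the error, the unadjusted p was 0.0508 and the adjusted p 0.738.

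Gfus had log2 values of 9.78 in WTA and 9.71 in WT2 with streptozotocin, against 9.65 in WTA and 9.48 in WT2 in control cells, so both treated arrays lay above both control arrays. Its difference was 0.18 (limma adjusted p = 1).

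Among the mannose genes, Gmppa had log2 values of 10.00 in WTA and 9.86 in WT2 with streptozotocin, against 10.02 in WTA and 10.28 in WT2 in control cells. The treated arrays lay below the controls, in WTA by 0.02 only. The difference was -0.21 (SE 0.14, limma adjusted p = 1), and -0.08 without the control array of WT2. Its second probe set gave -0.16. Gmppb, the catalytic partner, differed by -0.02.

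Pmm1 differed by 0.19, with -0.04 in WTA and 0.43 in WT2, and its control array of WT2 was the low one. Its paralogue Pmm2 differed by -0.01. Mpi differed by 0.20, close in both cultures (0.19 in WTA and 0.21 in WT2).

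**Figure D3:**
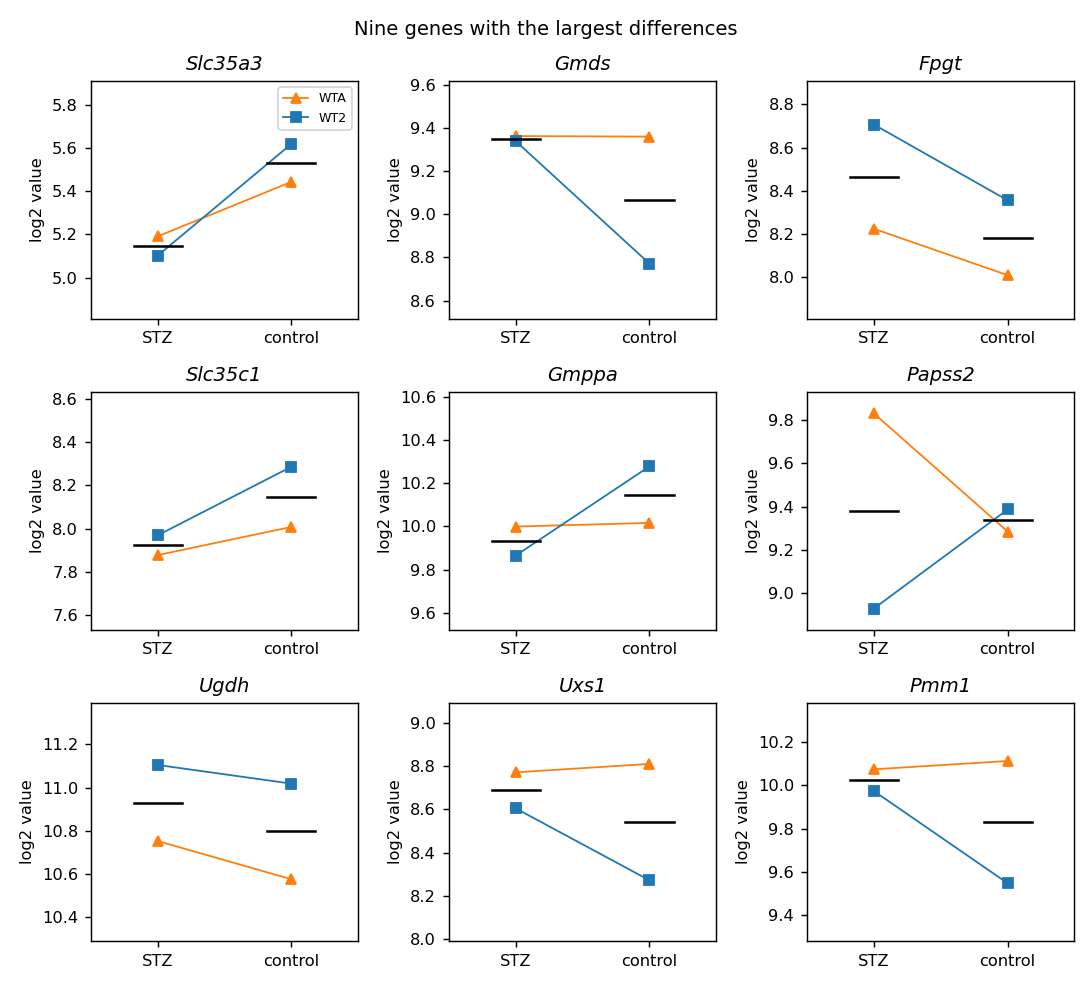
Log2 values of the 9 genes with the largest differences in either comparison, in STZ (left) and control (right) cells, with WTA as triangles, WT2 as squares, lines joining the arrays of a culture and bars at the group means; each panel spans the same height. The lines of Slc35a3, Slc35c1, Fpgt and Ugdh slope the same way in both cultures, as do those of Gmppa and Gmds, which are nearly flat in WTA. Those of Papss2, Uxs1 and Pmm1 slope in opposite directions, Uxs1 and Pmm1 being nearly flat in WTA.

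UDP-glucose comes from glucose-1-phosphate through Ugp2. Ugdh oxidises it to UDP-glucuronate, a building block of hyaluronan and glycosaminoglycans, and Uxs1 turns that into UDP-xylose, which starts the linker of proteoglycan chains. All 3 differences were above 0, at 0.15 for Ugp2, 0.13 for Ugdh and 0.15 for Uxs1, and 0 passed the test. Ugp2 and Ugdh were higher in both cultures, as were 22.6% of all probe sets. Uxs1 differed by -0.04 in WTA and 0.33 in WT2.

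The hexose phosphate genes feed these routes from glucose and serve glycolysis as well. Hk1, a hexokinase, differed by -0.04 and Gpi1, glucose-6-phosphate isomerase, by -0.06. Pgm1, the phosphoglucomutase, differed by 0.11, and Pgm2, a related phosphopentomutase, by 0.06. Older mouse annotation used the last 2 symbols the other way round. The galactose genes Galk1 and Galk2, both sugar kinases, differed by 0.11 and 0.01, and Galt, the uridylyltransferase, by -0.12. Of these 7 genes, 0 passed the test, and the interval of each lay within a 1.5-fold change.

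PAPS is made by the paired enzymes Papss1 and Papss2, of which Papss2 is known for its part in skeletal growth. Papss2 had the widest spread of the 33 genes over the 4 arrays, 0.90 from lowest to highest, against a median of 0.30. It had log2 values of 9.83 in WTA and 8.93 in WT2 with streptozotocin, against 9.28 in WTA and 9.39 in WT2 in control cells. The 2 treated arrays were the highest and the lowest, and the controls lay between. As at Slc35a3, the identifier of the probe set carries an s. The difference was 0.55 in WTA and -0.46 in WT2, which left 0.04 over both (SE 0.34, 95% interval -0.95 to 1.03, limma adjusted p = 1). It was the 1 gene of 33 with differences of at least 1.2-fold in opposite directions, 3.03%, against 3.53% of all probe sets. Of the 4 macrophage and leukocyte markers, 0 met this rule. Csf1r differed by 0.45 in WTA and -0.26 in WT2, and Adgre1 by 0.29 and -0.21, below 1.2-fold in WT2. Mrc1, with -0.002 in WTA and 0.033 in WT2, and Clec4d, with 0.008 and 0.020, differed less. Adgre1, Mrc1 and Clec4d stood near the low end of the array. The summed log2 values of the 4 macrophage and leukocyte markers were 18.61 and 17.98 in the treated arrays of WTA and WT2, against 17.87 and 18.39 in the controls. The part of such cells in the Papss2 values was not tested. Papss1 differed by -0.16, with -0.21 in WTA and -0.12 in WT2.

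**Figure D4:**
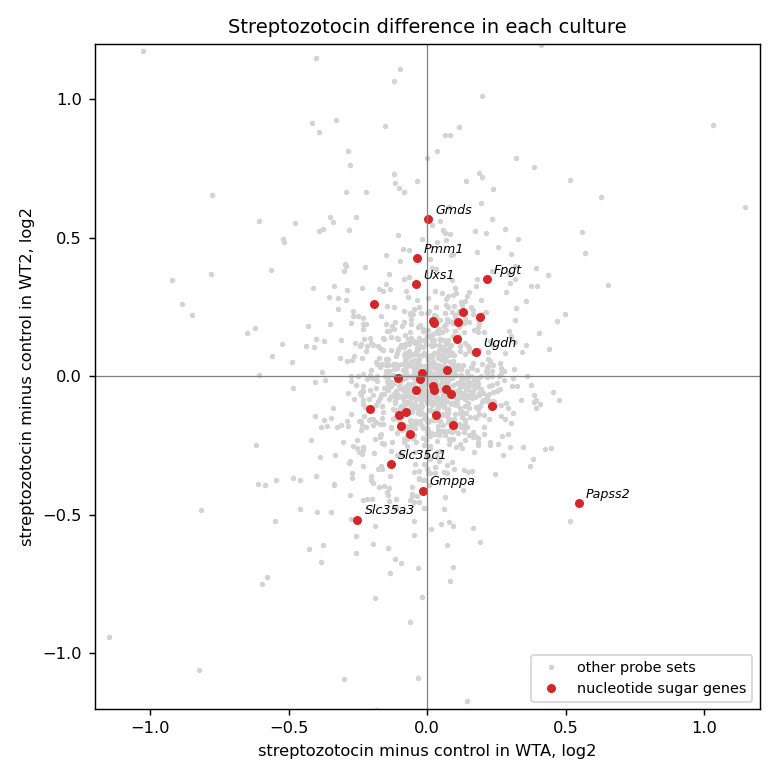
The streptozotocin minus control difference in WTA (horizontal) and in WT2 (vertical), on the log2 scale, for the 33 genes (red) and the other probe sets (grey), of which 30 lie outside the plotted range of 1.2 either way. Papss2 lies apart from the other red points, high in WTA and low in WT2, and Gmds lies near 0 in WTA and at 0.57 in WT2.

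The control array of WT2 was the array farthest from the median of the other 3 for 16 of the 33 genes, 48.5%, against 34.3% of all probe sets. It was so for Gmds, Pmm1, Uxs1 and Mpi, where it was the lowest, and for Slc35a3, Slc35c1 and Gmppa, where it was the highest. A deviation of that array and a different level in untreated WT2 cells cannot be told apart with 1 array. The summed log2 values of the 3 fibroblast markers were 32.71 in WTA and 33.68 in WT2 with streptozotocin. In control cells they were 33.78 in WTA and 35.78 in WT2, so both treated sums were below either control. Each marker was lower with streptozotocin within both cultures. Lum alone had both treated arrays below both controls, and Dcn and Pdgfra overlapped. In bulk RNA, fewer cells of a type and less RNA per cell cannot be told apart, and their part in the values above was not tested. Without the control array of WT2, limma again called 0 of the 33 genes, and 0 had an unadjusted p under 0.05.

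Other genes that supply sugar donors were taken from a list of 35, of which 20 had a matched probe set. By limma, 0 of the 20 passed for streptozotocin, as did 0% of all probe sets. An unadjusted p under 0.05 was seen for 2 of the 20, Pgm5 and Gnpda2, against 2.01% of all probe sets. In the fit with a replicate block it was 2 of 20, against 80 of 1246 probe sets. Of the 20 differences 12 were above 0 and 8 below, with a median of 0.02. Pgm5, a relative of the phosphoglucomutases that sits at cell adhesion sites of muscle, had log2 values of 5.56 in WTA and 4.97 in WT2 with streptozotocin, against 5.96 in WTA and 6.41 in WT2 in control cells. Both treated arrays were below both controls, with a difference of -0.92 (SE 0.28, limma adjusted p = 1). Gnpda2, a glucosamine-6-phosphate deaminase, differed by 0.35, and Gfpt2, an entry enzyme of the hexosamine pathway, by 0.26, which was 0.09 without the control array of WT2 and 0.44 without that of WTA.

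The second comparison set WTA against WT2, in a fit with treatment and culture. It describes these cell samples, and its error is how unlike their streptozotocin differences were. The differences of the 33 genes ran from -0.41 at Fpgt to 0.40 at Papss2, with 18 above 0 and 15 below. Their median was 0.02, against -0.02 over all probe sets. Without regard to sign it was 0.17, against 0.12 over all probe sets. By limma, 0 of the 33 passed an adjusted p of 0.05, where 2.25% of all probe sets did. At an unadjusted p under 0.05 there were 2 genes, Fpgt and Ugdh (6.06%, background 16.9%). Both arrays of WTA lay above both of WT2 for 10 genes (30.3%, background 21.3%) and below for 10 (30.3%, background 27.7%).

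Fpgt was lower in WTA, at 8.22 with streptozotocin and 8.01 in control cells, against 8.71 with streptozotocin and 8.36 in control cells of WT2. The difference was -0.41 (SE 0.10, 95% interval -0.70 to -0.13, limma adjusted p = 0.167), and -0.24 without the streptozotocin array of WT2. Here and below, a culture difference with 1 array left out comes from a fit without the treatment term, so a treatment difference enters it. Ugdh had 10.75 with streptozotocin and 10.58 in control cells of WTA, against 11.10 with streptozotocin and 11.02 in control cells of WT2. The cultures did not overlap, and the difference was -0.40 (SE 0.10, 95% interval -0.67 to -0.12, limma adjusted p = 0.167).

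Uxs1, the next enzyme after Ugdh, stood the other way. It had 8.77 with streptozotocin and 8.81 in control cells of WTA, against 8.60 with streptozotocin and 8.27 in control cells of WT2. The difference was 0.35 (SE 0.13, limma adjusted p = 0.323), and 0.19 without the control array of WT2. Pmm1 had 10.07 with streptozotocin and 10.11 in control cells of WTA, against 9.97 with streptozotocin and 9.55 in control cells of WT2. Its difference of 0.33 (SE 0.15, limma adjusted p = 0.409) was 0.12 without that array. Papss2 differed by 0.40 (SE 0.28, limma adjusted p = 0.585), with overlapping cultures, and by 0.13 to 0.67 with 1 array left out, the lowest without the streptozotocin array of WTA and the highest without the control array of WTA.

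Among the remaining genes, the differences between WTA and WT2 ran from -0.26 at Papss1 to 0.31 at Gmds. Of the 20 other sugar donor genes 0 passed, against 2.25% of all probe sets. An unadjusted p under 0.05 was seen for 3 of the 20, against 16.9% of all probe sets. Of the 20, 14 were higher in WTA and 6 lower. Their largest differences were at Nagk, the kinase of salvaged GlcNAc (0.38), Cmas, which makes CMP-sialic acid (0.34), and Dpm2, a subunit of dolichol-phosphate-mannose synthase (0.32). Of 8 endothelial markers 3 were measured, Esm1, Selp and Pecam1. Their summed log2 values were 20.17 and 19.27 in WTA, against 14.29 and 13.43 in WT2, mostly through Esm1. Between WTA and WT2, Esm1 differed by 4.93, Selp by 0.79 and Pecam1 by 0.15. The limma adjusted p was 0.00304 for Esm1, 0.0897 for Selp and 0.570 for Pecam1. Pecam1 stood near the low end of the array in both cultures, with means of 3.96 in WTA and 3.81 in WT2. The sum therefore does not describe all 3 markers alike. The part of endothelial cells in the values above was not tested.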

How the data were processed

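Per the labels, RNA was extracted with Trizol and biotin-labelled cRNA was hybridised to Affymetrix arrays. The authors deposited log2 values of 4 arrays, computed per probe set by RMA, according to the submitters' processing notes, whose version is "not given in the sources used here". Groups, replicate numbers and the culture names came from the titles, whose "3w" was not interpreted. The replicate number names the same cell sample in both groups, so it pairs the arrays (correlation of same-numbered arrays' deviations 0.600).

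The 963 probe sets with 1 symbol were named from their accession (GRCm38.p6 gene table, names and promoter windows); 283 had none here and stayed in the fits. limma 3.58.1 in R 4.3.3 was fitted to all 1246 probe sets with Benjamini-Hochberg adjustment, for treatment (2 residual and 1.68 prior degrees of freedom) and for culture beside treatment (1 and 2.73). Both fits were tested on simulated data. Given in full were, by rule, the 5 genes with the largest difference in each comparison, and 3 per comparison of the other sugar donor genes; Gfus was added after its values were seen. Members and lists were chosen with earlier results of these data known. Alternatives are listed in the closing section.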

Additional observations from a re-analysis of the deposited data

Results flagged for a closer look

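Papss2 had streptozotocin differences of opposite sign in the cultures, 0.547 in WTA and -0.459 in WT2, each of at least 1.2-fold. With 1 array per group in each culture, the difference between the cultures was not tested.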

How the results depend on the processing

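The treatment comparison called 0 of the 33 genes and 0 of the probe sets tested under each alternative run: the replicate block (0 called, 80 at an unadjusted p under 0.05), each array left out, median centring, quantile normalization, bright probe sets alone (without the 5 dim genes), an intensity trend, a robust fit, the mean or the dimmer probe set of a gene, and an adjusted p under 0.1. The block changed no call. The culture comparison called 0 of the 33 under each of its alternatives. Over all probe sets it called 28, but 13 without the treatment term, 8 after quantile normalization, 2 among bright probe sets, 49 with a robust fit, 64 at an adjusted p under 0.1 and 0 to 18 with 1 array left out; it was 0 without either array of WTA. Fewer probe sets or arrays entered some of these, and the culture runs with 1 array left out had no treatment term. Otherwise the cause was not tested. After quantile normalization 1 gene, Gmds, passed 1.5-fold in WT2 (0.61), against 0 before. Leaving out 1 array moved Gmds for streptozotocin between -0.00921 and 0.58. The negative value was the 1 reversed direction among 32 such differences, while Gmds differed by 0.003 within WTA. Fpgt moved between 0.04 (without the streptozotocin array of WT2) and 0.52, and Slc35a3 between -0.47 and -0.30. Those fits had no culture term, so a difference between WTA and WT2 entered them. The 32 culture differences with 1 array left out kept their direction. Both sets of 32 come from the genes picked for their largest differences. Where the arrays of the compared groups do not overlap, leaving out 1 array cannot reverse the direction. Most of these genes were of that kind, so the counts do not measure stability. Signal over background limits what dim probe sets such as that of Slc35d3 can show.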

Other observations

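Uap1l1, a relative of the enzyme that makes UDP-GlcNAc, was chosen after its values were seen. Its streptozotocin difference was 0.52 in WTA and -0.52 in WT2, so its treated arrays, at 9.65 in WTA and 8.99 in WT2, were the highest and the lowest, with the controls at 9.13 in WTA and 9.51 in WT2. Papss2 has the same order of treated arrays. Of the 909 named genes 35 had differences of at least 1.2-fold in opposite directions, and no test bears on any of them.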
